A study of Bos taurus with 30 samples.

Results

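The 8 imprinted miRNAs that lie around RTL1, at the MEG3 end of the DLK1-DIO3 region, were followed through the anterior pituitary of young bulls. They were picked by name (bta-miR-493, bta-miR-665, bta-miR-431, bta-miR-433, bta-miR-127, bta-miR-432, bta-miR-136 and bta-miR-370, written below without the prefix for cattle) and all 8 were found among the 1030 bovine miRNAs of the table. All 8 were also among the 419 miRNAs that held enough reads to be tested. In the RefSeq annotation of the assembly ARS-UCD2.0 their genes are the 2nd to the 9th of 60 miRNA genes that lie on chromosome 21 from BEGAIN to DIO3. MIR493 and MIR665 follow MEG3 and lie outside the span of a named gene. MIR431, MIR433, MIR127, MIR432 and MIR136 lie within the span of RTL1, and MIR432 and MIR136 also within that of MEG8. MIR370 lies within the span of MEG8 and beyond RTL1. The reads had been placed on another assembly, ARS-UCD1.2, so that only the order and the neighbours of the genes are given.

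Genomic imprinting leaves one parental copy of a gene silent. In the DLK1-DIO3 region the protein-coding genes DLK1, RTL1 and DIO3 are transcribed from the copy inherited from the father, and the long non-coding RNAs MEG3 and MEG8 and the miRNAs from the copy inherited from the mother. RTL1, also called PEG11, derives from a retrotransposon and is needed in the placenta and in muscle, and the miRNAs within it are made from a transcript that runs antisense to it, so that they pair fully with the RTL1 mRNA and guide its cleavage. The region is strongly expressed in the pituitary, brain and adrenal gland.

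The study asked how nutrition in early life acts on the anterior pituitary, the lobe of the gland that secretes growth hormone, gonadotrophins and other hormones. Small RNA was sequenced from 30 Holstein-Friesian bull calves, which came from several farms and sires, at 12 weeks of age. From 2 weeks of age the 15 HI calves received 1.5 kg of milk replacer in 10 litres per day with concentrate to appetite. The 15 MOD calves were given 4 litres with 0.5 kg of milk replacer each day, and their concentrate was held to 0.5 kg. Both groups were of one breed and sex. Each calf gave 1 library, so that p-values below measure the spread between calves.

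The deposited values are counts per 1000000 miRNA reads (CPM), scaled between libraries by TMM factors. Reads on miRNAs ranged from 6650492 to 11086524 per library, with a median of 8672424 in HI and 8856734 in MOD calves, and 3 reads were worth 0.266 to 0.419 CPM. The endocrine miRNAs miR-375 and miR-7 summed to at least 119220 CPM in every library, whereas the liver miRNA miR-122 was at most at 0.209 CPM. Library HI replicate 1 stood apart in its stromal miRNAs, which summed to 183329 CPM against at most 76179 CPM in MOD libraries, and HI replicates 15 and 8 had the highest TMM factors, at 1.21 and 1.15. The libraries also fall into a set of 9 with the highest label numbers (HI replicates 11 to 15 and MOD replicates 6, 7, 8 and 15) and the other 21 (10 HI and 11 MOD calves). This set is not a group of the study. It was drawn earlier from another miRNA, miR-99b, and the order of the labels, and what the label numbers stand for is not given in the sources used here.

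The 8 miRNAs together held 3.23% of the reads of a library on average, with a range of 2.51% to 4.87% over the calves. Almost all of this was miR-127, which made up 93.6% to 97.0% of their sum. With 30626 ± 4433 CPM (SD, n = 30) miR-127 ranked 8th of the 419 miRNAs tested, and each library held 203929 to 429199 reads of it. It was followed by miR-136, at 1004 ± 186 CPM, and miR-432, at 286 ± 45.5 CPM. The pair beside MEG3 came next, with 163 ± 22.5 CPM for miR-493 and 106 ± 17.2 CPM for miR-665. Levels were lower for miR-370, at 45.5 ± 8.60 CPM, and miR-433, at 29.1 ± 5.16 CPM. The lowest was miR-431, at 4.18 ± 1.07 CPM, ranked 342nd of 419, with 20 to 61 reads per library. The mean of miR-127 was thus 7333 times that of miR-431, although both lie within RTL1. CPM of mature miRNAs were not divided by length, as mature miRNAs are of nearly one length. These values compare reads, and whether the library kit takes up each miRNA equally was not tested.

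**Figure D1:**
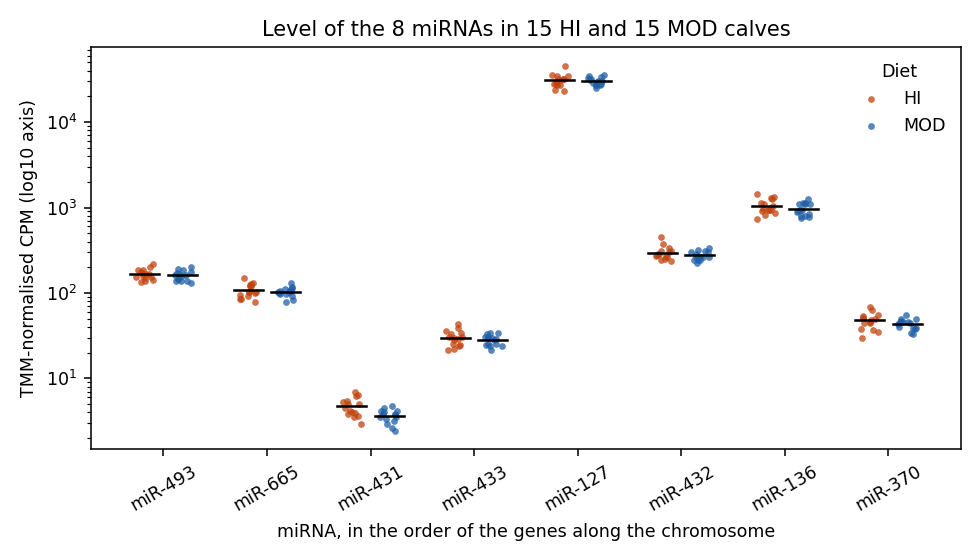
TMM-normalised CPM of each miRNA, on a log10 axis, against its place in the order of the genes, with 1 point per calf (15 HI and 15 MOD) and a black line at the mean of each diet. The levels run from about 4.18 CPM for miR-431 to 30626 CPM for miR-127, and for every miRNA the HI and MOD points overlap.

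This order was the same within each calf. It was taken from the means of these same 30 calves, so that the tests below are no separate support for it. For all 7 pairs of neighbours in the order of levels, the higher miRNA was above the lower one in 30 of 30 calves (two-sided sign-flip permutation test, p = 1e-05 for each pair, the smallest that the test can give, and 1e-05 after Benjamini-Hochberg adjustment over the 7). The widest step was from miR-127 to miR-136, by 4.94 on the log2(CPM + 1) scale (SD 0.30). The narrowest were from miR-370 to miR-433, by 0.63 (SD 0.26), and from miR-493 to miR-665, by 0.63 (SD 0.16). In 1 calf miR-370 was above miR-433 by as little as 0.05. The order of the levels was not the order of the genes, since the highest and the lowest of the 8 have a single miRNA gene, that of miR-433, between them.

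The variation from calf to calf was within that of other miRNAs. The coefficient of variation ran from 13.7% for miR-493 to 18.9% for miR-370, with 25.7% for miR-431, against a median of 19.8% over the miRNAs tested, of which 23.6% varied less than miR-493 and 67.1% less than miR-431. For miR-431 counting error alone would give 16.6%, and its variance was 2.40 times that of counting. For miR-127 the ratio was 5564, so that counting played little part in its spread. The highest calf was 1.67 times the lowest for miR-493 and 2.83 times for miR-431. All 8 miRNAs had a larger SD in HI than in MOD calves, for example 5593 against 3020 CPM for miR-127 and 55.5 against 31.5 CPM for miR-432. In the rest of the region the SDs in HI and MOD calves went both ways. They were 10919 against 7049 CPM for miR-411a and 52.4 against 70.0 CPM for miR-379. The share with a larger SD in HI over all miRNAs tested was not counted. The TMM factors were also more spread in HI libraries, with 1.02 ± 0.0724 against 0.979 ± 0.0313 (SD, n = 15 each), and the part of this in the SDs was not tested.

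Diet moved none of the 8 past the thresholds of the study. With limma on log2(CPM + 1) and Benjamini-Hochberg adjustment over the 419 miRNAs, 0 of 8 passed FDR < 0.1 and fold change > 1.5, and 0 of 8 passed FDR < 0.1 alone. Of all miRNAs tested, 0.477% passed both thresholds and 3.58% the FDR alone (1.91% higher and 1.67% lower in HI calves). At an unadjusted p < 0.05 there was 1 of the 8, miR-431, against 12.6% of all tested. That miRNA passed FDR < 0.1, but not the fold change, in edgeR's quasi-likelihood test and in DESeq2 on the recovered reads, as the only one of the 8 in either. The shares above are those of limma, and the shares of all miRNAs passing in edgeR and DESeq2 are not given here. All 8 differences were above 0, from 0.02 for miR-127 to 0.29 for miR-431, where the median over all miRNAs tested was 0.02. With upper quartile scaling, which put that median at -0.07, 5 of the 8 (miR-493, miR-665, miR-433, miR-127 and miR-432) were below 0.

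**Figure D2:**
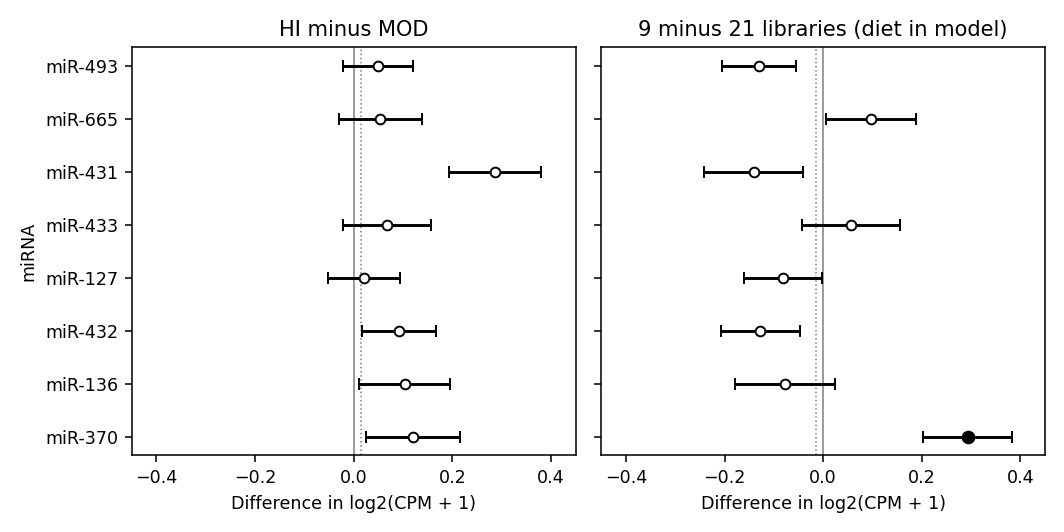
Difference in log2(CPM + 1) with its standard error from limma for each miRNA, between HI and MOD calves (left) and between the 9 and the 21 libraries with diet in the model (right); filled points passed FDR < 0.1, and the dotted line is the median of all 419 miRNAs. No point is filled for diet, where miR-431 lies farthest from 0 at 0.29, and miR-370, at 0.29, is the filled point for the label set.

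Expression of miR-431, which lies within RTL1 and is known to act in the precursor cells of muscle, averaged 4.71 ± 1.16 CPM under the HI diet against 3.64 ± 0.662 CPM under MOD (SD, n = 15 each). In HI calves it ran from 2.93 CPM (replicate 10) over a median of 4.49 to 6.87 CPM (replicate 3), on 21 to 61 reads. In MOD calves it ran from 2.43 CPM (replicate 12) over a median of 3.72 to 4.77 CPM (replicate 2), on 20 to 40 reads. The groups overlapped: 12 of 15 HI calves exceeded the median of the MOD group, and 7 its highest calf. The difference was 0.29 on the log2(CPM + 1) scale (SE 0.09, limma p = 0.00456, FDR = 0.106). It was 0.37 with edgeR's quasi-likelihood test (FDR = 0.0853) and 0.36 with DESeq2 (FDR = 0.0820), under the fold change threshold, which is 0.58 on the log2 scale.

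The difference in miR-431 was of like size in both sets of libraries. It was 0.30 within the 21 (10 HI and 11 MOD calves, exact two-sided permutation test, p = 0.0235) and 0.28 within the 9 (5 HI and 4 MOD calves, exact permutation p = 0.0476). Adjusted over the 16 such tests, both were at 0.339. Whether the FDR was under 0.1 turned on single calves and on the scaling. It ran from 0.0426 without HI replicate 10 to 0.191 without MOD replicate 12, and was below 0.1 in 7 of the 30 fits that left out 1 calf (HI replicates 1, 5, 10 and 15, and MOD replicates 2, 9 and 11). On total reads it was 0.0421, and with upper quartile scaling 0.258, with differences of 0.34 and 0.21. Fewer cells of a type and less of a miRNA per cell cannot be told apart in whole tissue. Of the 5 white blood cell miRNAs 0 were called for diet, and their sum had a median of 636 CPM in HI (highest 803) and of 547 CPM in MOD calves (highest 898). The sum of the 2 endocrine miRNAs ran from 119220 to 212047 CPM and from 134487 to 209427 CPM, with 0 of 2 called. Of the other marker lists, miR-205 of stratified epithelium was the only miRNA called for diet here, and it reached at most 402 CPM in HI against 749 CPM in MOD libraries. The paper, using edgeR, also reports the red blood cell miRNAs miR-144 and miR-451 as higher in HI calves. With limma miR-144 was at FDR = 0.115. The part of these cells in the level of miR-431 was not tested.

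The other miRNAs within RTL1 differed less between the diets. The abundant miR-127 ran from 22869 CPM (replicate 15) over a median of 30868 to 45867 CPM (replicate 2) in HI calves, and from 25023 over 30181 to 35360 CPM in MOD calves. Thus the HI calves held both the lowest and the highest value, and the difference was 0.02 (SE 0.07, FDR = 0.949). Without HI replicate 2 it was -0.02. For miR-136 the HI range was 725 to 1443 CPM with a median of 958, and the MOD range 765 to 1260 CPM with a median of 932. The difference was 0.10 (SE 0.09, FDR = 0.746), with the lowest value again in HI replicate 15.

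Expression of miR-432 ran from 234 over a median of 286 to 449 CPM in HI calves and from 226 over 267 to 336 CPM in MOD calves. The MOD median was exceeded by 11 of 15 HI calves, but the highest MOD value only by replicates 8 and 15, and these were the libraries with the highest TMM factors. The difference was 0.09 (SE 0.08, FDR = 0.731), and 0.05 without HI replicate 8. The least abundant neighbour, miR-433, ran from 21.2 over 29.8 to 42.8 CPM in HI and from 21.6 over 28.6 to 34.4 CPM in MOD calves, with the highest value also in HI replicate 8. It differed by 0.07 (SE 0.09, FDR = 0.873).

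The 3 miRNAs that flank RTL1 did not pass either. On the MEG3 side, miR-493 averaged 166 ± 23.9 CPM (HI) and 161 ± 21.3 CPM (MOD), a difference of 0.05 (SE 0.07, FDR = 0.883). Its neighbour miR-665 was 108 ± 20.5 and 103 ± 13.6 CPM, also a difference of 0.05 (SE 0.08, FDR = 0.906). On the MEG8 side, miR-370, which in liver cells is known to act on the fatty acid oxidation enzyme CPT1A, was 47.8 ± 10.3 and 43.3 ± 6.06 CPM. This was a difference of 0.12 (SE 0.09, FDR = 0.721), the second largest of the 8. For miR-370, 10 of 15 HI calves exceeded the MOD median, and the lowest value of all was in HI replicate 1, at 30.0 CPM.

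The label set was called in 1 of the 8, miR-370, at FDR < 0.1 with diet in the model (limma), where 26.0% of all miRNAs tested were called (11.7% higher and 14.3% lower in the 9). At an unadjusted p < 0.05 it was also 1 of the 8, against 32.9%. In the 9 libraries miR-370 ran from 43.5 over a median of 51.3 to 68.1 CPM. In the other 21 it ran from 30.0 over 44.3 to 63.0 CPM, and no library held fewer than 260 reads of it. The sets overlapped, with 8 of the 9 above the median of the 21 and 1, HI replicate 14, above the highest of them. The means were 52.4 ± 7.20 (SD, n = 9) and 42.6 ± 7.49 CPM (SD, n = 21), a difference of 0.29 (SE 0.09, FDR = 0.0212). It was below 0.1 in 8 of 8 alternative settings (0.0105 to 0.0826) and in 30 of 30 fits that left out 1 calf (0.00565 to 0.0547).

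**Figure D3:**
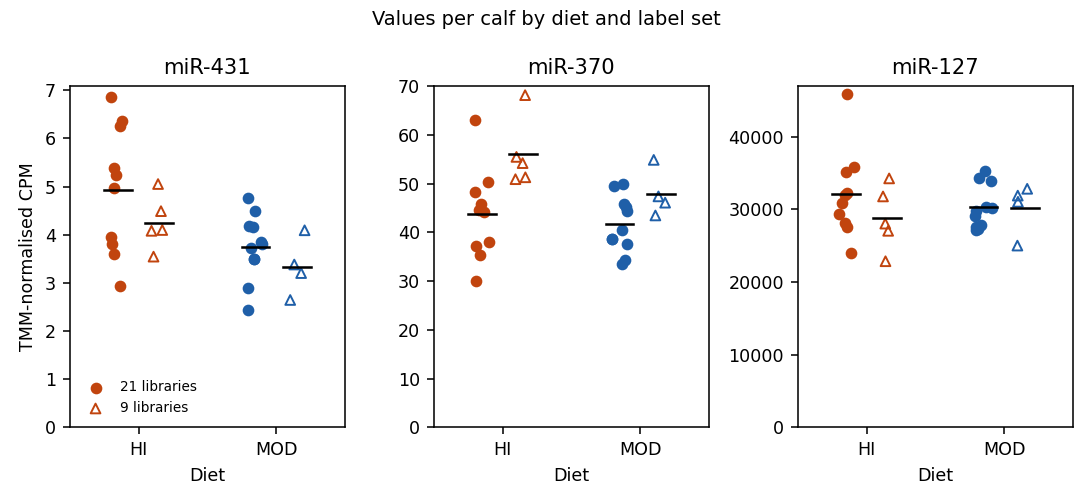
TMM-normalised CPM of miR-431, miR-370 and miR-127 by diet, on axes that start at 0, with 1 point per calf, filled circles for the 21 and open triangles for the 9 libraries, and black lines at the means. Of the HI calves 7 lie above the highest MOD calf for miR-431, the triangles of miR-370 lie above the mean of the circles in 9 of 9 libraries, and miR-127 in HI replicate 2 stands alone at 45867 CPM.

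Marker miRNAs of endocrine cells moved with the same split. The 2 endocrine miRNAs, miR-375 and miR-7, were both called higher in the 9, and their sum ran from 159431 to 212047 CPM there and from 119220 to 191519 CPM in the 21. Of the 3 neural miRNAs tested 1 was called higher, and no member of the red or white blood cell, striated muscle, stratified epithelium, stromal or endothelial lists was called. The part of these in the level of miR-370 was not tested. Of the other 7 miRNAs, miR-665 and miR-433 were above 0 (0.10 and 0.06) and miR-493, miR-431, miR-127, miR-432 and miR-136 below it (-0.13, -0.14, -0.08, -0.13 and -0.08), with FDR values from 0.235 to 0.729.

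Neither the ranges of the label numbers nor an interaction with diet set any of the 8 apart. Over the 4 ranges into which the label digits fall, 0 of 8 passed FDR < 0.1 in limma's F test, and 0 of 8 had an unadjusted p < 0.05, the lowest being 0.101 for miR-432. Of all miRNAs tested 0.239% and 3.34% did. The diet difference itself differed between the sets at FDR < 0.1 in 0 of 8 with limma, and the FDR values ran from 0.875 to 0.971. At an unadjusted p < 0.05 it was also 0 of 8, where all miRNAs tested gave 0% and 5.01%.

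The ratio of the reads of neighbouring miRNAs within a library, with no pseudocount, does not depend on how libraries are scaled, and was added after seeing the data. Of 14 such comparisons, for 7 pairs of neighbours with diet and with the label set, 2 passed FDR < 0.1, both for the label set. As 26.0% of all miRNAs tested were called for the label set, ratios of other pairs may differ too. Those were not compared, so a shift particular to neighbours is not shown. The log2 ratio of miR-493 to miR-665, adjacent genes beside MEG3, was 0.47 ± 0.15 in the 9 libraries (SD, n = 9) and 0.70 ± 0.11 in the 21 (SD, n = 21). The difference was -0.23 (two-sided permutation test, p = 1e-04, 0.0014 after adjustment over the 14). The miRNAs themselves were not called, with miR-493 at 153.7 ± 22.3 against 168 ± 21.7 CPM and miR-665 at 111 ± 20.1 against 103 ± 15.8 CPM. The ratio of miR-136 to miR-370 was 4.20 against 4.58 on the log2 scale, a difference of -0.38 (permutation p = 0.00319, adjusted 0.0223). As miR-370 was itself called for the label set, this ratio is not a result apart from that call. Between diets the lowest p was for miR-665 against miR-431, at 0.0266 (adjusted 0.124). With 1 CPM added to each value the same 2 comparisons passed, and the diet value for miR-665 against miR-431 was 0.0475 (adjusted 0.222).

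**Figure D4:**
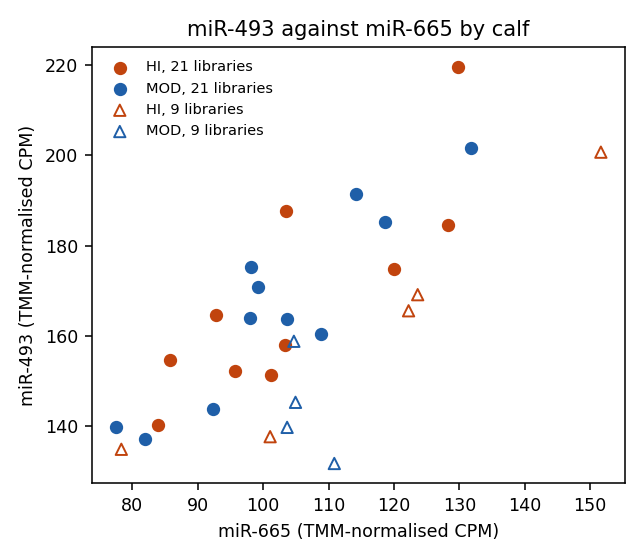
TMM-normalised CPM of miR-493 against that of miR-665, with 1 point per calf, filled circles for the 21 and open triangles for the 9 libraries, coloured by diet. Both rise together within each set, and most triangles lie below the circles at the same level of miR-665, as in the mean log2 ratios of 0.47 and 0.70.

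Across calves 3 of the 8, miR-493, miR-665 and miR-136, were related to each other beyond the adjusted threshold. The 28 pairs among them had a median Spearman's rho of 0.25, where all pairs of miRNAs tested had -0.0011, and 25 of the 28 were above 0. The difference between these medians was not tested. The medians were 0.29 within the 21 libraries, 0.31 within the 9, 0.32 on total reads and 0.27 with upper quartile scaling. The points share the scaling of their libraries. Permutation p-values were adjusted over the 3316 pairs of a member with a miRNA tested. Of the 28 pairs, 3 had both adjusted values below 0.05, and these join miR-493, miR-665 and miR-136. Pairs with miRNAs other than the 8 passed too, such as miR-493 with miR-380-3p (adjusted 0.00166 for r and 0.00301 for rho). The share of all 3316 pairs that passed was not counted.

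The closest pair was miR-493 and miR-665, with r = 0.73 (permutation p = 1e-05, adjusted 0.00166) and rho = 0.66 (permutation p = 1e-04, adjusted 0.00947). Without the 2 calves farthest from the median of miR-493, r was 0.68, and r was 0.87 within the 21 libraries and 0.83 within the 9. For miR-665 and miR-136, whose genes are 5 places apart, r was 0.70 (permutation p = 1e-05, adjusted 0.00166) and rho 0.65 (permutation p = 0.00014, adjusted 0.0101). Without the 2 calves farthest from the median of miR-665, r was 0.71, and it was 0.69 and 0.85 within the sets. For miR-493 and miR-136, r was 0.61 (permutation p = 0.0004, adjusted 0.0201) and rho 0.56 (permutation p = 0.00165, adjusted 0.0456), with r = 0.54 without the 2 farthest calves and 0.60 and 0.63 within the sets.

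Adjacent genes within RTL1 were not close in this sense. For miR-431 and miR-433 r was 0.01 (permutation p = 0.975, adjusted 0.991) and rho 0.03 (permutation p = 0.857, adjusted 0.950). For miR-433 and miR-127 r was 0.07 (permutation p = 0.725, adjusted 0.882) and rho 0.10 (permutation p = 0.588, adjusted 0.815). For miR-127 and miR-432 r was 0.08 (permutation p = 0.675, adjusted 0.859) and rho 0.27 (permutation p = 0.154, adjusted 0.434), and rho was 0.54 on total reads. The 3 pairs with rho below 0 were miR-127 with miR-370, miR-432 with miR-370 and miR-431 with miR-432, at -0.11, -0.10 and -0.10.

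Most of the miRNAs nearest in pattern to the 8 came from the same region. Among the 10 miRNAs with the highest rho, those of the region numbered 9 for miR-127 and for miR-136, 7 for miR-493 and for miR-665, 5 for miR-433, 4 for miR-431 and for miR-432, and 1 for miR-370. The region was taken here as a list of names, which has 55 of the 419 miRNAs tested. Also tested were miR-3956 and miR-10172-3p, whose genes are among the 60, but they are not on this list and count as outside. Of these, miR-10172-3p was among the 10 of miR-431. The median rho with the 47 tested miRNAs of the region that are not among the 8 ran from 0.13 for miR-370 to 0.37 for miR-665, and that with miRNAs outside the region from -0.05 for miR-433 to 0.00 for miR-370.

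On the MEG3 side, miR-493 was most like miR-380-3p (rho = 0.81), miR-381 (0.78) and miR-22-3p (0.75), and miR-665 most like miR-381 (0.73), miR-16b (0.69) and miR-493 itself. Within RTL1, miR-431 was most like miR-154b (0.60), miR-1247-5p (0.53) and miR-410 (0.53), and miR-433 most like miR-1197 (0.66), miR-504 (0.60) and miR-380-3p (0.58). The nearest to miR-127 were miR-376e (0.62), miR-495 (0.58) and miR-376b (0.57). The nearest to miR-432 were miR-382 (0.71), miR-374b (0.69) and miR-655 (0.69), and to miR-136 miR-411a (0.80), miR-369-3p (0.76) and miR-380-3p (0.72). In contrast, the 3 nearest to miR-370 over all calves, miR-423-3p (0.67), miR-2285bm (0.63) and miR-2443 (0.61), are not of the region. Within the 21 libraries their rho with miR-370 was 0.57, 0.53 and 0.62. In the same libraries rho with miR-370 was 0.63 for miR-493 and miR-665 and 0.61 for miR-433. It was lower, from -0.04 to 0.33, for miR-431, miR-127, miR-432 and miR-136. Within the 9 libraries rho was 0.52, 0.40 and 0.60 for the 3 nearest. It was 0.58 for miR-493, 0.18 for miR-665 and -0.18 for miR-433.

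The 24 relations of a member with its 3 nearest had r from 0.42 to 0.81 over 30 calves. Their permutation p-values ran from 1e-05 to 0.020 for r and from 1e-05 to 0.00336 for rho. The adjusted values reached 0.148 for r (miR-127 with miR-376b) and 0.0643 for rho (miR-431 with miR-410). Without the 2 calves farthest from the median of the member r was 0.43 to 0.77. Within the 21 libraries rho was 0.41 to 0.85, and within the 9 it was 0.18 to 0.95. The lowest of the latter was for miR-432 with miR-374b.

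**Figure D5:**
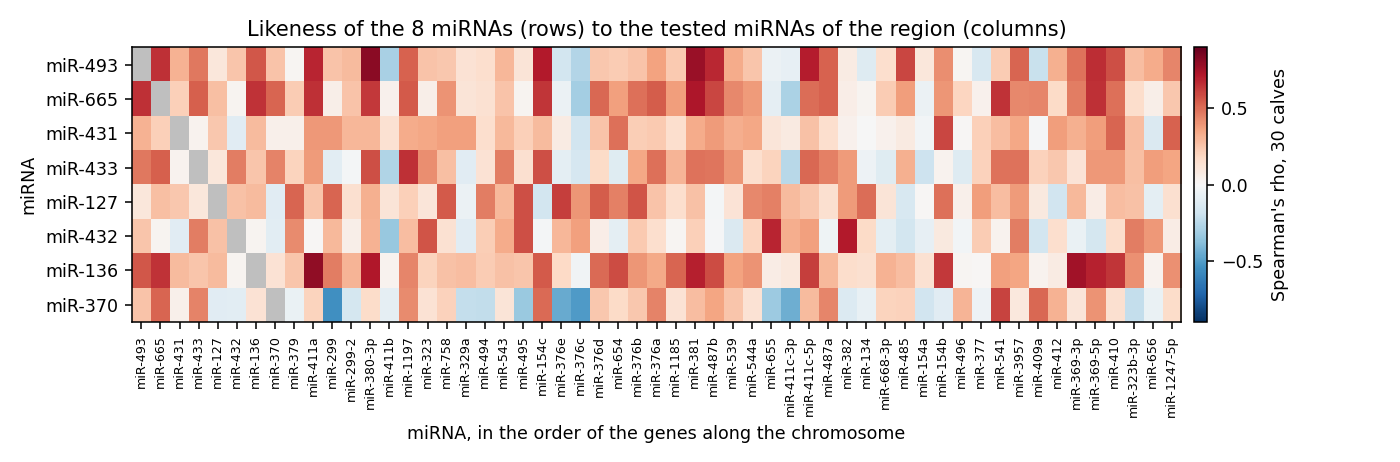
Spearman's rho over 30 calves between each of the 8 miRNAs (rows) and each tested miRNA on the list of the region (columns). The list leaves out miR-10172-3p and miR-3956, and columns follow the order of the genes. Colour runs from blue below 0 to red above 0, with a miRNA against itself in grey. The rows of miR-493, miR-665 and miR-136 are mostly red, with 0.81 for miR-493 and miR-380-3p, whereas the row of miR-370 has several blue cells.

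The rest of the region was compared between the diets in the same way. Beside the 8, the list of the region held 53 names, of which 47 were tested. The 8 and these names together took 9.29% of the reads. The group that starts at miR-379 took 5.44%, led by miR-411a at 52273 ± 9038 CPM (SD, n = 30), above miR-127. It was drawn by miRNA number and so includes miR-411c, whose gene lies farther along, among those of the larger group. The larger group from miR-323 to miR-656 took 0.616%, led by miR-410 at 2922 ± 415 CPM. For diet 1 of the 47 passed FDR < 0.1, against 3.58% of all tested. This was miR-323, with means of 81.1 ± 12.4 CPM (HI) and 67.7 ± 6.73 CPM (MOD), a difference of 0.25 (SE 0.07, FDR = 0.0392). The median difference was 0.08 over the 8, 0.06 over the 47 and 0.02 over all tested, and differences above 0 numbered 8 of 8, 37 of 47 and 230 of 419. Beyond MEG3, miR-10172-3p, whose gene lies within BEGAIN, averaged 4.93 ± 2.43 CPM (HI) and 2.63 ± 0.884 CPM (MOD; difference 0.65, FDR = 0.0256).

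For the label set 8 of these 47 were called, 17.0% against the 26.0% of all tested. Only miR-409a was higher in the 9, at 63.1 ± 14.7 against 19.5 ± 3.35 CPM, a difference of 1.64 (FDR = 1.13e-13). The 7 that were lower were miR-299, by 0.58 on the log2 scale, miR-411c-3p, miR-154b, miR-323b-3p, miR-410, miR-494 and miR-495. The median difference was -0.08 over the 8 and -0.10 over the 47, against -0.02 over all tested.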

How the data were processed

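The authors prepared libraries with an Illumina small RNA kit, checked reads with FastQC 0.11.8, trimmed adapters (Cutadapt), retained reads as long as a miRNA, filtered out further classes of short RNA, and quantified annotated miRNAs of cattle on the ARS-UCD1.2 assembly using miRDeep2. What was deposited is a normalised signal per miRNA and library, CPM scaled by edgeR's TMM factors. The spacing of low values gave the reads of each library: 94.6% to 97.6% of the values checked per library (up to 150 reads) were within 0.02 reads of a whole number, as were all values of the 8 miRNAs. Recomputed TMM factors lay within 6.70e-06 of those deposited.

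HI and MOD were compared with limma 3.58.1 (R 4.3.3, lmFit and eBayes with a trend) on log2(CPM + 1) of the 419 miRNAs passing filterByExpr, with Benjamini-Hochberg adjustment. This scale understates changes of low miRNAs. Alternatives were edgeR 4.0.16, DESeq2 1.42.0, other scalings, no filter, a pseudocount of 0.1, covariates, and each calf left out. Permutation tests of single values used 100000 resamples, or all of them where called exact. The script was tested on simulated data. Counting error alone is covered by read limits.

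The 8 miRNAs, the lists of the region and the marker lists were chosen with earlier results of these data known. Named are the 8, their 3 nearest by rho, the leading or called miRNAs of the region, and markers. No sequences were used here.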

Additional observations from a re-analysis of the deposited data

Results flagged for a closer look

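Within each diet and label set of 4 to 10 calves, 24 groups of values were examined for a calf far from the others of its group, and 3 had one. The 11 MOD calves of the 21 libraries were above this size and were not examined, so HI and MOD calves cannot be compared here. Chance alone gives about 1 in 20 groups. Among the 5 HI calves of the 9 libraries, HI replicate 15 had 370 CPM of miR-432, where the next was 269 CPM. In the same group HI replicate 14 had 68.1 CPM of miR-370, where the next was 55.5 CPM, and this was also the highest miR-370 of all 30 calves. Among the 10 HI calves of the 21 libraries, HI replicate 8 had 449 CPM of miR-432, where the next was 334 CPM. HI replicates 15 and 8 had the highest TMM factors, at 1.21 and 1.15, and the part of the scaling in these values was not tested.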

How the results depend on the processing

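The count of the 8 miRNAs past FDR < 0.1 and fold change > 1.5 for diet was 0 in every setting run. Past FDR < 0.1 alone it was 0, and 1 (miR-431) with edgeR's quasi-likelihood test, with DESeq2, on total reads and with the 9 libraries entered as a blocking term (FDR = 0.0819). It was 0 to 1 over the 30 fits that left out 1 calf. The difference of miR-431 kept its sign in all of them. With upper quartile scaling the diet difference reversed for miR-493 (-0.0498), miR-665 (-0.0447), miR-433 (-0.0289), miR-127 (-0.0784) and miR-432 (-0.0074), and this scaling put the median of all miRNAs at -0.07. With miR-486 as a covariate miR-433 reversed to -0.0313, and without HI replicate 2 miR-127 reversed to -0.0206. Over the fits that left out 1 calf miR-127 ran from -0.0206 to 0.0511. For the label set the count was 1, and 2 when the 4 label ranges entered as a blocking term, where miR-432 passed (-0.20, FDR = 0.0785). It was 1 to 2 over the fits that left out 1 calf, with miR-493 added without HI replicate 14 (-0.18, FDR = 0.0936). The shares of all miRNAs that passed FDR < 0.1 in these other settings, for diet or the label set, are not given here. The step from miR-493 to miR-665 was 0.63 over all calves and 0.47 in the 9 libraries alone. The cause of these changes was not tested. According to the paper, calves were blocked by age, bodyweight, sire and farm before diets were assigned. The labels do not give these blocks, so the diet tests leave them out. No paired analysis was possible because no label matches an HI calf to a MOD calf, and replicate numbers here only name the calves of a diet. The 4 label ranges hold both diets and were used as a blocking term. Depth limited miR-431, with 20 to 61 reads per library.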
